A study of Mus musculus with 227 samples.

Results

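Fenofibrate was 1 of 218 drugs tested for 8 h on primary mouse cerebrocortical cultures, and its single RNA-seq library was the only one of that drug. The library was chosen by its agent label from the 218 drug and 9 vehicle libraries of the screen. It was set against the 9 vehicle libraries and, in a separate comparison, against the 29 libraries of other drugs that carry the same sequencing run code. Cultures came from embryonic day 16.5 cortices of F1 embryos of FVB/N and C3B6F1 parents and were grown for 21 days in vitro. The Fenofibrate cultures and those of the 29 other drugs had 1 compound each, at concentrations that are not given in the sources used here. Vehicle cultures received 0.2% DMSO. The 29 other drugs were Escitalopram, Guanfacine·HCl, Carvedilol, Galantamine·HBr, Diltiazem·HCl, Nifedipine, Nimodipine, Captopril, Simvastatin, Rifampin, Dolasetron, Fosinopril·Na, Betamethasone, Thalidomide, Dextromethorphan, Diclofenac·Na Salt, Nabumetone, Omeprazole, Oxcarbazepine, Pantoprazole, Paroxetine·HCl, Ramipril, Propranolol·HCl, Telmisartan, Terazosin·HCl, Naloxone·HCl, CE-210666, CE-326597 and PF-05019702-00. The last group is therefore a mixture of treatments, and its spread holds the effects of these drugs. The screen asked which clinic-tested, brain-penetrant drugs change transcripts relevant to neurogenetic disease.

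Fenofibrate is a fibrate, a class of lipid-lowering drugs. It is an ester prodrug that esterases convert to fenofibric acid, an agonist of PPARα, the nuclear receptor encoded by Ppara. Activated PPARα pairs with a retinoid X receptor and binds direct-repeat response elements near genes of fatty acid uptake, peroxisomal and mitochondrial oxidation and ketogenesis, most strongly in liver. Several other pathways are described below by gene lists. One is the ATF4 pathway of the integrated stress response, in which phosphorylation of eIF2α favours translation of the transcription factor ATF4 and so raises genes of amino acid supply and of stress.

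The Fenofibrate library held 39.88 M counted reads, against 31.4 to 43.77 M in the vehicles and 32.42 to 46.96 M in the other drugs of the run code. It had 18923 genes with at least 1 read, against 18151 to 18673 in vehicles and 18237 to 18674 in the other drugs, and only 2 other libraries of the screen had more. Mitochondrially encoded genes took 2.90% of its counts, the lowest share of all libraries of the screen, against 3.1 to 3.9% in vehicles and 3.3 to 4.2% in the other drugs of the run code. The part of these differences in the results below was not tested. Vehicles 8 and 9 carried the run code of the Fenofibrate library, and the other vehicles carried other codes. The 3 drugs of the same lane, Nabumetone, Omeprazole and Oxcarbazepine, had 3.3 to 3.7% mitochondrial counts. Defining markers of neurons and astrocytes were high in RPKM, read counts scaled to gene length and library size. Snap25, a synaptic protein of neurons, had 329.98 RPKM with Fenofibrate and 354 to 504 RPKM with vehicle, and Slc1a2, the astrocytic glutamate transporter, had 308 RPKM with Fenofibrate and 154 to 248 RPKM with vehicle. The 12 microglial markers were low in both groups and summed to 5.33 CPM with Fenofibrate and 3.88 to 29.2 CPM with vehicle, and endothelial Cldn5 was at 0 in the Fenofibrate and the vehicle libraries. The libraries are of whole cultures, so fewer cells of a type and less RNA per cell cannot be told apart.

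The Fenofibrate library differed from vehicle in 1646 of 15525 tested genes (10.6% background, edgeR quasi-likelihood test, adjusted p under 0.05). Of these, 904 genes (5.82%) were higher and 742 (4.78%) were lower than in vehicle cultures. Rises were the larger changes. A log2 fold change of 1 or more was seen for 307 rises and of -1 or less for 117 falls, and 115 rises but 20 falls went past 2 log2 units. Against the 29 other drugs of the run code, 4561 of 15699 genes passed (29.1%), 2315 higher (14.7%) and 2246 lower (14.3%). The comparisons share the Fenofibrate library. Of the genes called against vehicle, 877 rises (97.0% of them, and 37.9% of the rises against the run drugs) and 729 falls (98.2%, and 32.5%) were called in the same direction against the other drugs, and 0 in the opposite one. For 866 rises and 726 falls, the Fenofibrate library lay outside the range of all vehicles and all other drugs of the run code. It was the highest of all libraries of the screen for 665 rises and the lowest for 656 falls. The genes counted as outside these ranges had already been called in both comparisons, and the share of all tested genes outside them was not counted. The naming rule asks for a value outside both ranges in the largest and the lowest-p changes. For those genes, groups that do not overlap are therefore no added support. Of the 877 rises and 729 falls called in both comparisons, 866 and 726 lay outside both ranges. For the other called genes, a lack of overlap thus adds little to the call. One library gives no error of its own. Each test assumes that it would vary like the libraries it is compared with, and the p-values measure only the spread between libraries that are not stated to come from separate cultures or animals. With vehicles 8 and 9 alone, the counts were 241 higher and 76 lower, and DESeq2 gave 1145 higher and 1332 lower. Counts of list members below are to be read beside the shares of all tested genes, 5.82% higher and 4.78% lower against vehicle, and 14.7% higher and 14.3% lower against the other drugs.

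The largest rises that met the naming rule were in genes with little RNA in vehicle cultures. Trim63 (chr4:134315120-134329629, plus strand, GRCm38), which encodes the muscle-atrophy ubiquitin ligase MuRF1, had 2.59 CPM (counts scaled to a common library size) with Fenofibrate, from 105 reads. Vehicles had 0, 0.0291 and 0.156 CPM (lowest, median and highest), and the other drugs of the run code 0, 0.0512 and 0.190 CPM. The groups did not overlap, and the log2 fold change over vehicle was 5.58 ± 0.55 (SE; edgeR adjusted p = 0.000188). Fbxo32, which encodes atrogin-1, the other ubiquitin ligase known from muscle atrophy, had 42.0 CPM with Fenofibrate, against 2.57, 3.41 and 7.54 CPM in vehicles and 2.37, 3.745 and 5.09 CPM in the other drugs. It was 3.31 ± 0.37 log2 units higher than in vehicles (edgeR adjusted p = 0.000426), again without overlap. Tmem140 (4.936), the cytokine gene Il11 (4.3725) and the long non-coding RNA Lincpint (4.371) followed Trim63 in log2 fold change over vehicle.

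Mx2 (chr16:97535308-97560900, plus strand) encodes an interferon-induced dynamin-like GTPase. It had 33.3 CPM with Fenofibrate, against 1.08, 1.71 and 2.09 CPM in vehicles and 1.03, 1.53 and 2.08 CPM in the other drugs of the run code. The Fenofibrate value stood clear of every other library of the screen, of which the next was Nilotinib with 2.69 CPM. The log2 fold change over vehicle was 4.36 ± 0.19 (edgeR adjusted p = 8.48e-07). Of 18 tested genes of the interferon response, Mx2 alone passed. Its neighbour and paralog Mx1 had 0.247 CPM with Fenofibrate and 0.0931 to 0.390 CPM with vehicle, and the response genes Isg15 and Ifit1 had log2 fold changes of -0.34 and -0.49 without passing (edgeR adjusted p = 0.750 and 0.687).

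Neat1 (chr19:5824708-5845478, minus strand), the long non-coding RNA that scaffolds nuclear paraspeckles, had 264 CPM with Fenofibrate. Vehicles had 6.37, 11.9 and 32.0 CPM and the other drugs 4.47, 10.97 and 28.7 CPM, so the groups did not overlap. It was 4.199 ± 0.52 log2 units above vehicle (edgeR adjusted p = 0.000934). Maff, a small Maf transcription factor without an activation domain, had 125 CPM with Fenofibrate, against 1.81 to 12.96 CPM in vehicles and 2.34 to 12.1 CPM in the other drugs. The other genes among the 15 largest rises were Cldn1, a tight-junction protein (3.823), Trpm1, a cation channel (3.67), Aim1 (3.51), Hlx, a homeobox factor (3.21), Zfp36, an RNA-binding protein that speeds decay of AU-rich mRNAs (3.190), and Atf3 and Ppp1r15a, described below (log2 fold changes over vehicle). Rises of genes that vary little between vehicles had the lowest p-values. Among them were Coq10b, a coenzyme Q-binding protein (2.47 ± 0.10), Pkdcc, a secreted kinase (2.33 ± 0.10), and Isy1 and Ccnl1, which act in splicing (1.71 ± 0.07 and 1.95 ± 0.09, log2 fold change ± SE). Zfp655, Zbtb2 and Fam53c rose by 1.39, 1.598 and 1.09 log2 units (edgeR adjusted p at most 9.12e-06 for these 7 genes).

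**Figure D1:**
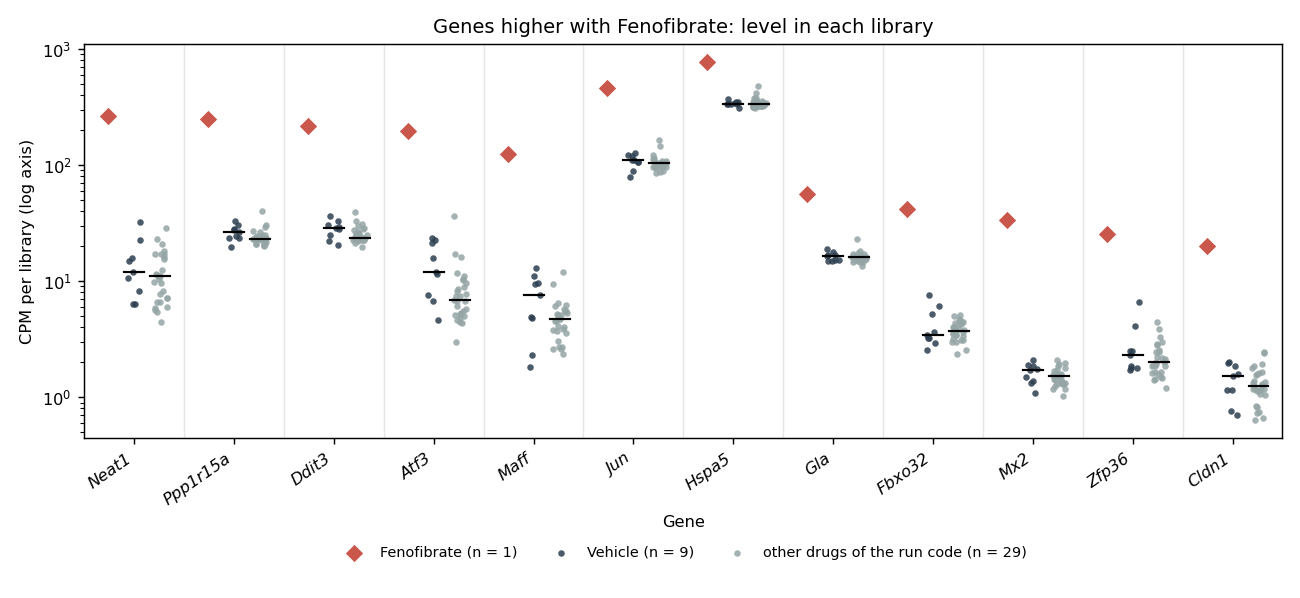
CPM (log axis) of 12 genes higher with Fenofibrate, in the Fenofibrate library (red diamond), each of 9 vehicle libraries (dark points) and each of 29 libraries of other drugs of the run code (grey points), with black lines at the medians of both. The diamond lies above every point of its gene, by the widest margin on this axis for Mx2 and by the narrowest for Hspa5 (772 CPM against at most 480 CPM).

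Of 34 tested genes of the ATF4 stress response, 13 rose (5.82% of all tested genes rose) and 0 fell, and the median log2 fold change over vehicle was 0.43, beside -0.0046 over all tested genes. Against the other drugs of the run code 20 of 34 rose, beside 14.7% of all genes, and 1 fell. Ddit3 (chr10:127290774-127296288, plus strand), which encodes the stress-induced factor CHOP, had 217 CPM with Fenofibrate, against 20.4, 28.7 and 36.1 CPM in vehicles and 19.6, 23.7 and 39.7 CPM in the other drugs. It was 2.95 ± 0.19 log2 units above vehicle (edgeR adjusted p = 1.47e-05), with no overlap, and the next library of the screen was Nilotinib with 96.5 CPM. Ppp1r15a (chr7:45522916-45526268, minus strand) encodes GADD34, which directs dephosphorylation of eIF2α. It had 250 CPM with Fenofibrate, against 19.8, 26.3 and 32.8 CPM in vehicles and 19.998, 23.2 and 40.0 CPM in the other drugs (log2 fold change over vehicle 3.251 ± 0.15, edgeR adjusted p = 1.31e-06). The groups again stood apart.

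Atf3 (chr1:191170296-191218039, minus strand), a stress-induced transcription factor, had 197 CPM with Fenofibrate, against 4.577, 11.9 and 23.4 CPM in vehicles and 2.984, 6.9 and 36.4 CPM in the other drugs. The difference from vehicle was 3.822 ± 0.53 log2 units (edgeR adjusted p = 0.00170). Chac1 (chr2:119351229-119354381, plus strand), which degrades glutathione, had 51.1 CPM with Fenofibrate and 10.4, 14.7 and 18.7 CPM in vehicles, with at most 31.1 CPM among the other drugs. Its log2 fold change over vehicle was 1.87 ± 0.26 (edgeR adjusted p = 0.00173). The Chac1 level ranked 3 from the highest in the whole screen, whereas Atf3, Ddit3 and Ppp1r15a ranked 1. The hormone gene Gdf15 (3.18), the transcription factors Cebpb (2.29), Atf4 itself (1.1552) and Cebpg (0.58), the amino acid transporters Slc3a2 (0.96), Slc7a5 (0.95) and Slc7a1 (0.50) and the enzymes Cth (0.89) and Shmt2 (0.41) made up the 13 (log2 fold changes over vehicle). The Cth call was lost when any vehicle other than 2 or 3 was left out, the Slc7a1 call without vehicle 1, 2, 4, 5, 7 or 8 and the Shmt2 call without vehicle 5. Asns, the asparagine synthetase often used to read out ATF4, had 116 CPM with Fenofibrate, against 99.5, 106 and 139 CPM in vehicles, and did not pass (0.02 ± 0.19 log2 units, edgeR adjusted p = 0.963). Trib3, a pseudokinase of the same pathway, had 17.7 CPM with Fenofibrate and 3.27 to 13.5 CPM in vehicles (edgeR adjusted p = 0.0672 against vehicle and 2.32e-06 against the other drugs). Of 20 aminoacyl-tRNA synthetases, also known ATF4 targets in part, 4 rose (Aars, Eprs, Tars and Iars, by 0.29 to 0.53 log2 units) and 0 fell. The Iars call was lost when any vehicle other than vehicle 4 was left out.

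Promoters of 4 genes of the lists are shown because each holds a searched motif. All are 300 bases on the gene's strand, from 250 bases before to 50 bases after the RefSeq start (GRCm38.p6), with the motif in capitals. Atf3 (chr1:191183284-191183583, minus strand) and Chac1 (chr2:119350992-119351291, plus strand) hold the ATF4-CEBP element TGATGNAA, read on the opposite strand. Ppp1r15a (chr7:45526219-45526518, minus strand) holds a cAMP response element, TGACGTCA, and the lysosomal gene Gla (chrX:134600956-134601255, minus strand) holds the E-box CACGTG at 2 places. Within the ATF4 list the cAMP response element was in the Ppp1r15a promoter alone (1 of 41 promoters, 2.44%).
Atf3: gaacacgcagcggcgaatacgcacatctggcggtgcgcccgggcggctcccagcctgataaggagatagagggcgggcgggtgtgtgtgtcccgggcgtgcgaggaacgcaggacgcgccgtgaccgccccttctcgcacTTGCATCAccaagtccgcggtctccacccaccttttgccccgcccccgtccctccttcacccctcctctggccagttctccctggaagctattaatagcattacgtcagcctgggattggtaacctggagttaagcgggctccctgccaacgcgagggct
Chac1: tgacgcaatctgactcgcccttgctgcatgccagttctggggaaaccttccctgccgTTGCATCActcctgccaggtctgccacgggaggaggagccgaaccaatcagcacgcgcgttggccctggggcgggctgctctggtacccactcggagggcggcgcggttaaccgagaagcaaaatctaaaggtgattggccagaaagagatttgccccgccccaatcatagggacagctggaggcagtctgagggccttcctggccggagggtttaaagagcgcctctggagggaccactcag
Ppp1r15a: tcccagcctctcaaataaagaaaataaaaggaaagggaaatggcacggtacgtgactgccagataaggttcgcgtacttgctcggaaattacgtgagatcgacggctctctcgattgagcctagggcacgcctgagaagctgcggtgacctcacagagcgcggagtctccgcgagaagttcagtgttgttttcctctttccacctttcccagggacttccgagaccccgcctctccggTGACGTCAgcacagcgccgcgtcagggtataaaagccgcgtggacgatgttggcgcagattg
Gla: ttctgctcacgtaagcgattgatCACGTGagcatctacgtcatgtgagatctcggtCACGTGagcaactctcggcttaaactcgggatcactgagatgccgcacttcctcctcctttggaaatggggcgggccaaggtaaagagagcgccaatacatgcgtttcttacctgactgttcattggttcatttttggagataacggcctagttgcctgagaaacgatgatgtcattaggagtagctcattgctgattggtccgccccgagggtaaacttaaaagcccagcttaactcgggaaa
Motifs were searched on both strands, and a match is a description of the letters only. A single ACGT can belong to the E-box or to the cAMP response element but not to both. TGATGNAA was in 11 of 41 promoters of the ATF4 list (26.8%), beside 3.97% of all 32851 promoters in the table, 3.257% of promoters of genes that rose, 2.196% of those of genes that fell and 2.253% of those of tested genes. Of these 11 genes, Atf3 and Chac1 were the 2 that rose. The cAMP response element was in 7.36% of 829 promoters of genes that rose, in 1.29% of 774 promoters of genes that fell and in 2.99% of the 14514 promoters of tested genes. The E-box was in 13.03% of promoters of genes that rose, 6.98% of those of genes that fell and 9.40% of those of tested genes. The PPAR response element, a direct repeat of AGGTCA with a single base between the copies, was in 0.0396% of all promoters. It was in 0 of 829 promoters of genes that rose, 1 of 774 of genes that fell and 0 of 21 of listed PPAR targets. With so few matches, this exact search cannot tell these sets apart.

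Chaperones of the endoplasmic reticulum rose in part. Of 19 tested genes, 5 rose, beside 5.82% of all tested genes, and 0 fell (list median log2 fold change 0.24). Hspa5 (chr2:34771970-34777547, plus strand), the reticulum chaperone BiP, had 772 CPM with Fenofibrate, against 312, 338 and 367 CPM in vehicles and 311, 332 and 480 CPM in the other drugs. The groups did not overlap (1.173 ± 0.08 log2 units over vehicle, edgeR adjusted p = 1.78e-05), and Luteolin, at 862 CPM, was the only library of the screen with more. Creld2 (1.124), Herpud1 (1.00), Dnajb9 (0.98) and Calr (0.53) were the others, while Hsp90b1, Pdia4 and Xbp1 had log2 fold changes of 0.25 to 0.51 that did not pass. Cytosolic heat shock genes gave a different count, with 1 of 14 higher and 3 lower. Hspa1a rose by 1.197 log2 units, and the co-chaperones Chordc1, Dnajb1 and Hspa4l fell by 0.60, 0.55 and 0.35. Hspa1a has a near-identical copy, Hspa1b, between which the authors' counting could split reads, so its value is uncertain. The Hspa4l call was lost without vehicle 5.

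Lysosomal genes rose in 8 of 21 cases and fell in 0, beside 5.82% and 4.78% of all tested genes. Their median log2 fold change was 0.40. Limma with a run code term, given here and below, also takes its fold change from vehicles 8 and 9. With limma and a run code term 14 rose, and with vehicles 8 and 9 alone 3 rose. Gla, the lysosomal α-galactosidase, had 56.6 CPM with Fenofibrate, against 14.8, 16.4 and 18.7 CPM in vehicles and 13.6, 15.99 and 23.1 CPM in the other drugs, without overlap (1.80 ± 0.11 log2 units over vehicle, edgeR adjusted p = 9.12e-06). Flcn, Fnip1 and Fnip2, which act together in nutrient sensing at the lysosome, rose by 0.92, 0.86 and 0.72 log2 units. The sialidase Neu1 (0.78), the cholesterol transporter Npc1 (0.66) and the protease Ctsb (0.66) were also among the rises. The Ctsb call was lost without vehicle 4, 5, 6, 7 or 9 and the Npc1 call without vehicle 5. Of 15 autophagy genes, the cargo receptor Sqstm1 rose (0.72 log2 units) and the kinase Ulk2 fell (by 0.34), a share of 13.3% beside 10.6% of all tested genes. The Ulk2 call was lost without vehicle 5, 6 or 9. Of 29 NRF2 targets, which answer oxidative stress, 4 rose and 1 fell, a share of 17.2%. Hmox1, the heme oxygenase, had 340 CPM with Fenofibrate, against 51.0, 62.9 and 138 CPM in vehicles and 40.3, 67.2 and 165 CPM in the other drugs (2.08 ± 0.38 log2 units over vehicle, edgeR adjusted p = 0.00732). Sqstm1 and the ferritin subunits Ftl1 (0.93) and Fth1 (0.55) were the other rises, and glutathione reductase Gsr fell by 0.63 log2 units. Both ferritin genes have many processed pseudogenes, so their counts are uncertain. Nqo1, a classical NRF2 target, had 2.86 CPM with Fenofibrate and 1.86, 2.66 and 3.22 CPM in vehicles and did not pass (edgeR adjusted p = 0.763).

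The lists of this paragraph stand beside 5.82% of all tested genes that rose and 4.78% that fell. Atf3, Gdf15, Btg2 and Per1 are each on more than 1 list, so the counts are not separate results. Among genes known from injured neurons, 5 of 11 rose and 0 fell (list median 1.164 log2 units). Jun, the AP-1 factor, had 461 CPM with Fenofibrate, against 79.1, 109 and 126 CPM in vehicles and 85.4, 103 and 163 CPM in the other drugs (2.099 ± 0.17 log2 units over vehicle, edgeR adjusted p = 5.57e-05). Tnfrsf12a, the TWEAK receptor, rose by 2.675 log2 units, Klf6 by 1.164 and Hrk, a BH3-only cell death gene, by 0.77, and Atf3 is on this list too. Of 20 p53 targets 5 rose and 1 fell. The rises were Gdf15, the BH3-only genes Pmaip1 (1.65) and Bbc3 (1.48), the anti-proliferative Btg2 (1.194) and Mdm2 (0.55), while Zmat3 fell by 0.47 and Cdkn1a, the main cell-cycle target, had a log2 fold change of 0.03 (edgeR adjusted p = 0.976). Activity-regulated genes rose in 6 of 30 cases and fell in 0. These were Gadd45b (2.07), Per1 (1.77), Gadd45g (1.7296), Ier2 (1.37), Btg2 and Crem (1.06). The Ier2 call was lost without vehicle 1, 3, 5 or 9. The best-known members varied widely among vehicles and did not pass. Fos had 75.3 CPM with Fenofibrate, against 16.6, 52.2 and 139 CPM in vehicles, and Npas4 had 12.3 CPM, against 8.69, 24.9 and 147 CPM. Bdnf had 27.5 CPM with Fenofibrate and 19.9, 49.7 and 206 CPM with vehicle (edgeR adjusted p of 0.920, 0.455 and 0.507 for Fos, Npas4 and Bdnf). Circadian clock genes rose in 5 of 17 cases and fell in 0, namely Ciart (2.273), Per1, the repressor Nr1d1 (1.41), Cry1 (1.31) and Bhlhe41 (0.96).

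**Figure D2:**
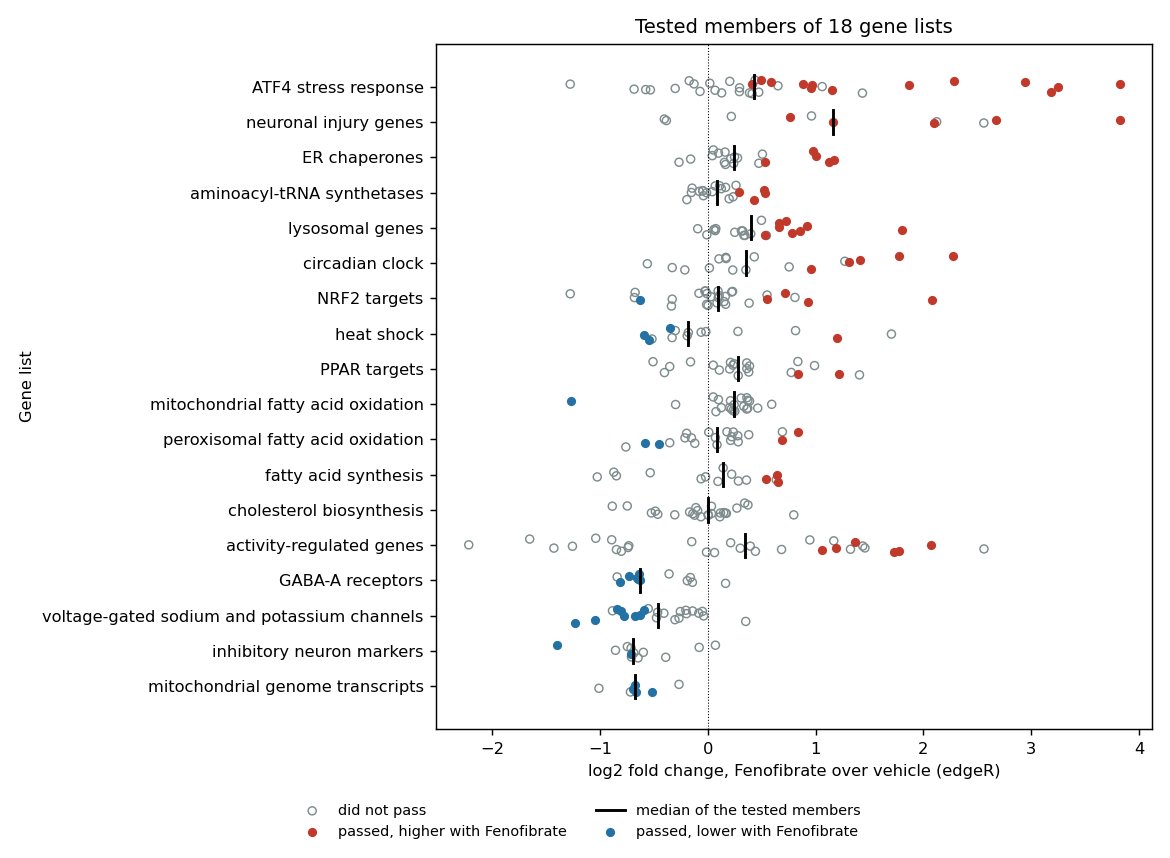
Log2 fold change of Fenofibrate over vehicle (horizontal axis) for each tested member of 18 gene lists, 1 list per line. Red points passed and were higher, blue points passed and were lower, open points did not pass, and black bars mark list medians, from 1.164 for neuronal injury genes to -0.70 for inhibitory neuron markers.

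The receptors of the drug's pathway were measured in all cultures. Ppara had 2.58 RPKM with Fenofibrate, against 0.778, 1.24 and 2.08 RPKM in vehicles, Ppard had 9.37 RPKM, against 7.10, 7.71 and 8.30 RPKM, and Pparg had 1.188 RPKM, against 0.143, 0.555 and 0.861 RPKM. All 3 were above the range of the vehicles, but none passed against vehicle. The log2 fold changes were 0.95 ± 0.42, 0.27 ± 0.09 and 1.23 ± 0.65 for Ppara, Ppard and Pparg (edgeR adjusted p = 0.181, 0.0979 and 0.269), and all passed against the other drugs of the run code (edgeR adjusted p = 0.0223, 0.00734 and 0.00181). Rxrg, a retinoid X receptor that can partner them, was the member of the 11 receptors and coregulators that passed. It had 3.31 CPM with Fenofibrate, against 7.11, 8.72 and 10.6 CPM in vehicles and 5.22, 7.49 and 10.8 CPM in the other drugs, and fell by 1.41 ± 0.24 log2 units relative to vehicle (edgeR adjusted p = 0.00560).

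Of 28 listed PPAR targets 21 were tested, and 2 rose and 0 fell against vehicle. This share of 9.52% stands beside 10.6% of all tested genes called in either direction and 5.82% that rose. The median log2 fold change of the 21 targets was 0.28. With limma and a run code term 4 rose and the median was 0.56, and with vehicles 8 and 9 alone 1 rose and the median was 0.51. Cd36 (chr5:17781690-17888801, minus strand), a fatty acid transporter, had 3.159 CPM with Fenofibrate, against 1.01, 1.31 and 1.69 CPM in vehicles and 0.842, 1.28 and 2.153 CPM in the other drugs. This was the highest level of the screen and 1.21 ± 0.24 log2 units above vehicle (edgeR adjusted p = 0.00963). Pex11a (chr7:79735957-79743131, minus strand), which drives peroxisome proliferation, had 19.8 CPM with Fenofibrate, against 7.69, 10.9 and 13.7 CPM in vehicles and 8.50, 10.4 and 14.2 CPM in the other drugs (0.84 ± 0.22 log2 units over vehicle, edgeR adjusted p = 0.0380). It too was the highest of the screen, and its call was lost when vehicle 4, 5, 6, 8 or 9 was left out.

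The targets most used as readouts of PPARα did not pass against vehicle. Angptl4, a lipoprotein lipase inhibitor, had 0.271 CPM with Fenofibrate, inside the vehicle range of 0.0663 to 0.741 CPM. Cpt1a, the gate of mitochondrial fatty acid oxidation, had 101 CPM with Fenofibrate, against 54.0, 86.8 and 146 CPM in vehicles (log2 fold change 0.05, but 0.56 with limma and a run code term and 0.51 with vehicles 8 and 9 alone). Pdk4, which restrains pyruvate oxidation, had 37.7 CPM with Fenofibrate, above the 11.6, 17.2 and 27.7 CPM of the vehicles but below the highest of the other drugs (57.9 CPM). Its log2 fold change over vehicle was 0.99 ± 0.33 (edgeR adjusted p = 0.0852). The lipid droplet protein Plin2 had 13.3 CPM with Fenofibrate and at most 11.5 CPM with vehicle (edgeR adjusted p = 0.244). Acot1 and Ehhadh lay inside the vehicle range, and Cyp4a14, a strong target in liver, had 0 reads in the Fenofibrate, vehicle and run-code libraries. Against the other drugs of the run code 5 of 22 targets rose, among them Cd36, Pex11a, Plin2 and the mitochondrial carrier Ucp2, beside a background of 14.7% of genes.

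**Figure D3:**
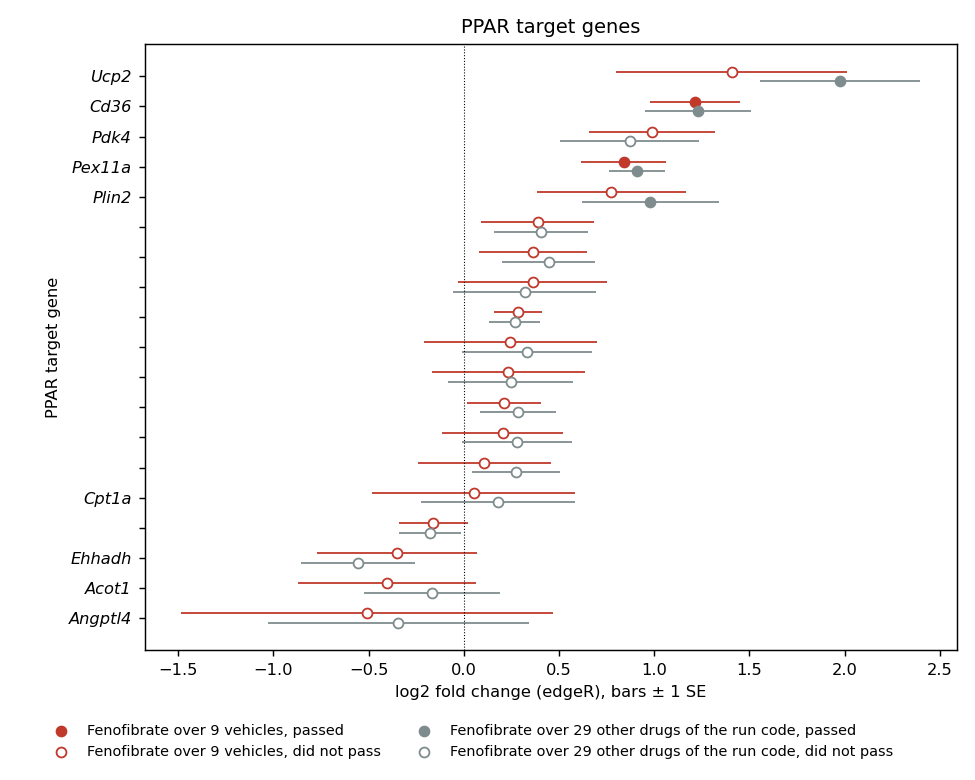
Log2 fold change (horizontal axis, ± 1 SE) of 19 PPAR target genes for Fenofibrate over 9 vehicles (red) and over 29 other drugs of the run code (grey), with filled points past the threshold. Cd36 and Pex11a are filled in both, Ucp2 and Plin2 in grey alone, and 15 genes are open in both. Genes without values in the text are drawn without a name.

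Calls among other lipid genes differed by list. Of 21 genes of mitochondrial fatty acid oxidation, Cpt2, the inner-membrane carnitine transferase, fell by 1.264 ± 0.33 log2 units (5.55 CPM with Fenofibrate, against 10.1 to 17.8 CPM in vehicles), and 0 rose, beside 10.6% of all tested genes called, whereas limma with a run code term gave 3 rises and 1 fall. The Cpt2 call was lost without vehicle 4, 5 or 9. Of 21 peroxisomal genes 2 rose, Pex11a and the thioesterase Acot8, and 2 fell (19.0% called), while limma with a run code term gave 3 rises and 0 falls. Of 15 genes of fatty acid synthesis the desaturases Fads1 (0.64) and Fads2 (0.54) and the elongase Elovl5 (0.65), which make polyunsaturated fatty acids, rose (3 of 15), and 0 rose with vehicles 8 and 9 alone. Against vehicle, edgeR called 0 of 25 genes of cholesterol synthesis and 0 of 13 LXR targets. Against the other drugs 0 of the cholesterol genes were called, and 1 LXR target rose and 2 fell. Hmgcs1, the cytosolic synthase of the cholesterol pathway, had 593 CPM with Fenofibrate and 304 to 1062 CPM in vehicles. In the cultures given other fibrates, whose doses are also not given and which came from other run codes, Ddit3 had 75.3 CPM with Ciprofibrate, 34.3 with Clofibrate, 24.04 with Bezafibrate and 34.1 with Gemfibrozil. Cd36 had 1.43, 1.75, 1.28 and 0.822 CPM in the same order. Hspa5, at 772 CPM with Fenofibrate, had 766, 408, 360 and 364 CPM in that order. These values stand side by side without a test.

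The Notch effector Hes5 and the Notch modifier Lfng were among the 15 largest falls that met the naming rule. Hes5 (chr4:154960923-154962371, plus strand) had 0.938 CPM with Fenofibrate, against 3.929, 7.55 and 10.0 CPM in vehicles and 4.78, 6.87 and 9.93 CPM in the other drugs. Lfng (chr5:140607320-140615545, plus strand), a glycosyltransferase, had 3.48 CPM with Fenofibrate, against 15.6, 24.6 and 37.1 CPM in vehicles and 16.3, 22.7 and 32.998 CPM in the other drugs. Neither gene overlapped either group, and they fell by 2.90 ± 0.62 and 2.82 ± 0.52 log2 units relative to vehicle (edgeR adjusted p = 0.0153 and 0.00766). Of 11 tested genes of the Notch pathway list, which does not hold Lfng, the ligand Jag1 rose by 0.80 log2 units and Hes5 fell. The Wnt receptor Fzd2 fell by 2.22 log2 units, and Id4 and Id2, inhibitors of basic helix-loop-helix factors, fell by 2.115 and 1.216. The zinc-finger factor Ovol2 fell by 3.18, the hyaluronan synthase Has3 by 1.92 and Hapln1, the link protein of the hyaluronan matrix around neurons, by 1.88. The other large falls were Slc26a7, Arhgap24, Apln, Sp7, Lrrc55, Inpp5d, Tnfaip8 and Fam43a, by 1.8 to 2.1 log2 units, and the Slc26a7 call was lost without vehicle 5 or 9. Falls with low p-values included the neuronal RNA-binding protein Elavl2 (by 1.45), the iron transporter Slc11a2 (by 0.83), the ubiquitin ligase Rnf170 (by 0.83), Cited2 (by 0.80), Fam84a (by 1.162), Ubash3b (by 1.04), Lrrn3 (by 1.03) and Ppp1r10 (by 0.95).

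Some genes of inhibitory transmission and of neuronal excitability fell. Of 12 GABA-A receptor subunits 6 fell and 0 rose, beside 4.78% of all tested genes that fell, and the median of the 12 was -0.63 log2 units. With vehicles 8 and 9 alone 0 fell, with a median of -0.55. Gabra4 had 64.2 CPM with Fenofibrate, against 104, 111 and 126 CPM in vehicles and 99.7, 110 and 126 CPM in the other drugs, without overlap (fell by 0.81 ± 0.10 log2 units, edgeR adjusted p = 0.00116). Gabrb1, Gabrb2 and Gabrg3 fell by 0.64, 0.64 and 0.62 log2 units, and the Gabrb2 call was lost without vehicle 4, 5, 6, 7, 8 or 9. Of 23 voltage-gated sodium and potassium channels 8 fell and 0 rose, with a median of -0.46. The falls numbered 4 without vehicle 5 and 4 without vehicle 9, and 3 with vehicles 8 and 9 alone. Kcnc2, a channel of fast-spiking interneurons, had 58.7 CPM with Fenofibrate, against 112, 130 and 166 CPM in vehicles (fell by 1.23 ± 0.22 log2 units, edgeR adjusted p = 0.00712). Others were Kcnj3 (by 1.05), Kcna2 (by 0.84), Kcna1 (by 0.80), Scn1a (by 0.77), Scn3a (by 0.63) and Kcnd2 (by 0.59). Kcnj3 is on the list but is an inward rectifier and not voltage-gated, so the 23 and the 8 include it. The calls of Kcnj3 and Scn3a were lost without vehicle 5 or 9, and that of Kcna1 when any vehicle other than 1 or 2 was left out. Of 22 glutamate receptor genes, Grm8, Gria1, Gria4 and Grin2d fell and Grik4 rose (22.7% called, beside 10.6% of all tested genes). The falls numbered 6 without vehicle 1 and 7 without vehicle 3, the Gria4 call was lost without vehicle 5 and the Grik4 call without vehicle 1, 5 or 9. Of 22 synaptic vesicle genes Cplx1, Syt1 and Sv2a fell (13.6%). With vehicles 8 and 9 alone both lists had 0 calls.

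Of 12 markers of inhibitory neurons, 2 fell and 0 rose against vehicle. Gad2 (chr2:22622205-22693874, plus strand), a GABA-synthesizing enzyme, had 195 CPM with Fenofibrate, against 441, 461 and 669 CPM in vehicles and 452, 509 and 612 CPM in the other drugs. It was the lowest of the screen and fell by 1.39 ± 0.25 log2 units relative to vehicle (edgeR adjusted p = 0.00652). The vesicular GABA transporter Slc32a1 fell by 0.72, and the other 10 did not pass. Most of these 10 nevertheless lay below every vehicle in RPKM. Npy, with 102.999 RPKM with Fenofibrate, was among the few inside the vehicle range (70.2 to 143.8 RPKM for Npy). The falls numbered 4 without vehicle 2. Against the other drugs 9 of 12 fell. Summed over the 12 markers, the level was 1311 CPM with Fenofibrate, against 1798 to 3070 CPM in vehicles and 1930 to 2704 CPM in the other drugs, and 0 of the 12 were at 0 reads. The 12 pan-neuronal markers summed to 5968 CPM with Fenofibrate, against 5972 to 8374 CPM in vehicles and 5355 to 8527 CPM in the other drugs, with falls of Tubb3 (by 0.74) and Syt1 (by 0.61). The Tubb3 call was lost when vehicle 4, 5, 6, 7 or 9 was left out. The 8 excitatory markers summed to 2187 CPM with Fenofibrate, inside the vehicle range of 1407 to 2844 CPM, and 0 passed. Of 12 astrocyte markers the folate enzyme Aldh1l1 rose by 0.57, Fgfr3 fell by 0.84 and Sox9 by 0.99, and their sum was 10041 CPM with Fenofibrate, against 7000 to 8938 CPM in vehicles and 6709 to 10317 CPM in the other drugs. The Fenofibrate sums of pan-neuronal and astrocyte markers thus lay inside the range of the other drugs. The Sox9 call was lost without vehicle 2, 4, 5, 6 or 9 and the Aldh1l1 call without vehicle 5. The part of these marker levels in the falls of receptors and channels was not tested.

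**Figure D4:**
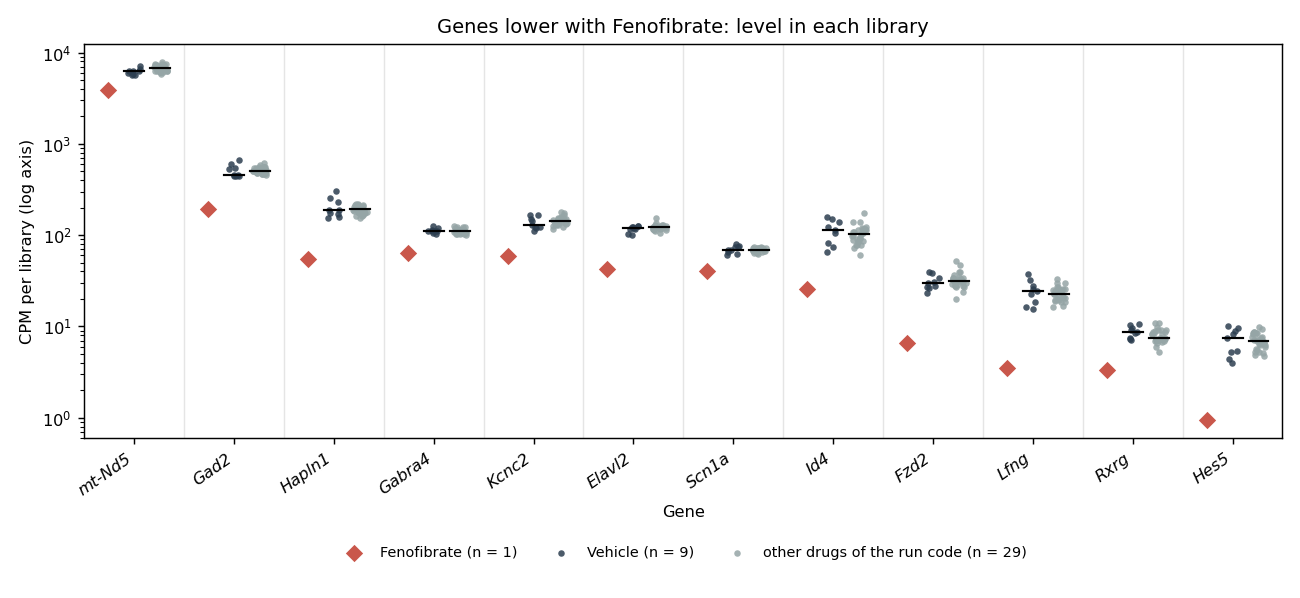
CPM (log axis) of 12 genes lower with Fenofibrate, in the Fenofibrate library (red diamond), each of 9 vehicle libraries (dark points) and each of 29 libraries of other drugs of the run code (grey points), with black lines at the medians of both. The diamond lies below every point of its gene, from mt-Nd5 (3842 CPM against at least 5628 CPM in vehicles) to Hes5 (0.938 CPM against at least 3.929 CPM in vehicles).

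Of 58 neurogenetic disease genes 4 rose and 3 fell, a share of 12.1% beside the 10.6% background. The falls numbered 1 without vehicle 5, 6 or 9. Atxn7, the gene of spinocerebellar ataxia type 7 (a repeat expansion disorder), had 65.7 CPM with Fenofibrate, against 24.998, 26.9 and 32.1 CPM in vehicles and 23.4, 26.6 and 31.8 CPM in the other drugs. The groups did not overlap, and the log2 fold change over vehicle was 1.248 ± 0.11 (edgeR adjusted p = 0.000116). Psen2 (0.67), a presenilin, and the lysosomal disease gene Npc1, whose call was lost without vehicle 5, were also among the rises. Scn1a, the sodium channel gene of Dravet syndrome, had 40.9 CPM with Fenofibrate, against 60.2, 68.7 and 79.8 CPM in vehicles (fell by 0.77 ± 0.15 log2 units, edgeR adjusted p = 0.00898).

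Some transcripts of the mitochondrial chromosome fell. Of 7 tested protein-coding members 4 fell and 0 rose, their median was -0.68 log2 units, and the other 6 of the 13 had almost no reads in any of these libraries. With limma and a run code term, and with vehicles 8 and 9 alone, 0 of the 7 fell (medians -0.57 and -0.60). The complex I subunit mt-Nd5 had 3842 CPM with Fenofibrate, against 5628, 6256 and 7040 CPM in vehicles and 5891, 6859 and 7902 CPM in the other drugs, without overlap (fell by 0.69 ± 0.16 log2 units, edgeR adjusted p = 0.0214). mt-Nd2, mt-Cytb and mt-Nd4 fell by 0.68, 0.67 and 0.51. The mt-Cytb call was lost without vehicle 5 or 9 and the mt-Nd4 call without vehicle 1, 4, 5, 6 or 9. The ribosomal RNA mt-Rnr1, in contrast, had 4010 CPM with Fenofibrate, against 1248, 1550 and 1750 CPM in vehicles (1.39 ± 0.15 log2 units, edgeR adjusted p = 0.000333). It was named after its values were seen, as a member of the 18 tested genes of this chromosome, of which 1 rose and 8 fell. Of 23 nuclear-encoded subunits of complex I, Ndufv2 fell by 0.34 and 0 rose. Nuclear copies of mitochondrial sequence can take such reads, so the values are uncertain.

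Small nucleolar RNAs rose in 12 of 91 tested cases (13.2%, beside 5.82% of all tested genes) and fell in 0 against vehicle, where their median log2 fold change was 0.79, and 29 rose and 0 fell against the other drugs, where 14.7% of all genes rose. The 12 had 0.296 to 1.68 CPM with Fenofibrate. Small nucleolar RNAs usually lie within introns of host genes, whose reads the counting could assign to them, so these values are uncertain. Genes that fell spanned more of the genome than genes that rose. The median span of protein-coding genes was 22.7 kb for 839 rises and 39.9 kb for 719 falls, beside 25.4 kb for the 14629 tested genes with a span. When these genes were divided into 10 groups of equal size by span, in the group with the longest genes (143 to 2961 kb), 2.73% rose and 9.64% fell, and the median log2 fold change was -0.15. In the group with the shortest, 6.02% rose and 3.96% fell, with a median of 0.03.

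**Figure D5:**
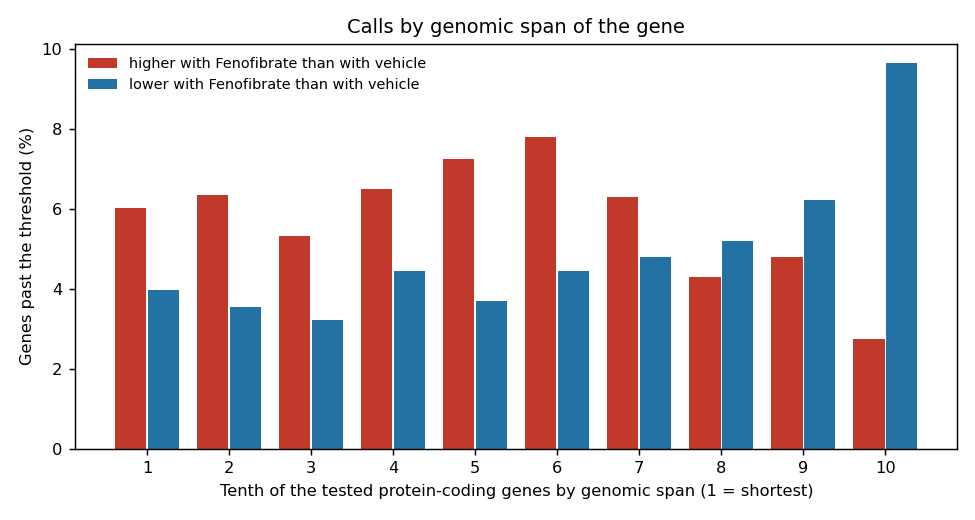
Percentage of tested protein-coding genes past the threshold (vertical axis) in each of 10 groups by genomic span (horizontal axis), higher (red) or lower (blue) with Fenofibrate than with vehicle. Falls exceed rises in the 3 groups with the longest genes and rises exceed falls in the other groups.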

How the data were processed

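Gene counts and RPKM values were used as the authors deposited them, 1 column per library, for 31689 mouse genes. The submitters' processing notes name STAR 2.4.0, Subread 1.4.6, limma, edgeR 3.10.5 and the mm10 build without roles, and the strand setting of counting is not given in the sources used here. The deposited RPKM values are, as read from the values, the counts scaled by gene length and library total, and served only for levels of receptors and cell markers.

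Counts were tested with edgeR 4.0.16 in R 4.3.3 (TMM, filterByExpr, quasi-likelihood F test, Benjamini-Hochberg adjustment over all tested genes, threshold 0.05). The Fenofibrate library was set against 9 vehicles and, separately, against 29 other drugs of its run code. SE is the size of the log2 fold change divided by the square root of F. CPM used TMM factors over all libraries. DESeq2 1.42.0, limma 3.58.1, other size factors, no filter, vehicles 8 and 9 alone and leaving out libraries were alternatives. In limma each drug has 1 library and its own term. With the run code term, Fenofibrate is therefore set against vehicles 8 and 9, with 3 residual degrees of freedom from the vehicles. The limma fit and the fit with vehicles 8 and 9 alone are thus not independent. Gene positions came from GENCODE (GRCm38) for 31328 genes, and promoters from RefSeq. Python 3.11.15 with pandas 2.3.3, numpy 2.4.6 and matplotlib 3.10.9 made tables and figures.

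Named genes were the 15 largest and the 10 lowest-p changes each way with a mean CPM of at least 1, called alike in both comparisons and outside the range of vehicles and run drugs, without numbered gene models, up to 4 called genes per list with the lowest p, and a fixed set. Other list members that passed were named to complete a count of a list. The comparison, the 48 lists (770 genes) and the rule were chosen with earlier results of these data known. On simulated counts for 1 library against 9 vehicles (13776 genes), 55.2% of genes changed by 1 log2 unit, 86.6% of those changed by 2 and 90.9% of those changed by 3 were recovered, and 7 of 13576 unchanged genes were called. For 1 against 29 other drugs (14125 genes) the shares were 83.6, 95.5 and 97.0%, and 12 of 13925 unchanged genes were called. The simulated library was drawn, gene by gene, from the means and spread of the libraries it was compared with. These shares therefore cannot show how often a real library with its own offset would give calls. Among the Fenofibrate and vehicle libraries, none of 45 pairs agreed within sampling noise (lowest chi-square per gene 10.4 over genes with a mean count of at least 50). Pairs of Fenofibrate with a vehicle had 90.3 to 208 on this measure, and pairs of vehicles had 10.4 to 355. Some vehicles thus differed from each other by more than Fenofibrate differed from any vehicle. Some genes are counted in their lists but are not reported by name here.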

Additional observations from a re-analysis of the deposited data

Results flagged for a closer look

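Among the named genes, 9 of 151 vehicle groups held a library whose gap to the nearest other vehicle, divided by the range of the 9, was above Dixon's 95% critical value. Chance flags about 1 in 20 groups. All 9 are vehicle libraries, since the Fenofibrate group has a single one. Vehicle 3 stood apart for 4 genes. Tnfrsf12a had 62.0 CPM with Fenofibrate, 15.7 CPM in vehicle 3 and 6.79 to 10.9 CPM in the other vehicles. Zfp36 had 25.6 CPM with Fenofibrate, 6.6 CPM in vehicle 3 and 1.72 to 4.07 CPM in the others. Trib3 had 17.7 CPM with Fenofibrate, 13.5 CPM in vehicle 3 and 3.27 to 6.995 CPM in the others. In all 3 genes vehicle 3 lay between the other vehicles and the Fenofibrate library. Chordc1 had 30.2 CPM with Fenofibrate, 39.7 CPM in vehicle 3 and 45.0 to 48.8 CPM in the others.

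Vehicle 2 was highest among vehicles for Fads2 (384 CPM with Fenofibrate, 303 CPM in vehicle 2, 247 to 269 CPM in the others) and Jag1 (9.06 CPM with Fenofibrate, 6.81 CPM in vehicle 2, 4.52 to 5.56 CPM in the others). Vehicle 8 was highest for Ppard (29.7 CPM with Fenofibrate, 27.8 CPM in vehicle 8, 23.1 to 25.2 CPM in the others) and Hspa1a (6.07 CPM with Fenofibrate, 3.58 CPM in vehicle 8, 2.18 to 2.80 CPM in the others). Vehicle 7 was lowest for Ndufv2 (82.8 CPM with Fenofibrate, 97.8 CPM in vehicle 7, 104 to 108 CPM in the others). For each of the 9 genes the Fenofibrate value lay outside the whole vehicle range.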

How the results depend on the processing

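No paired analysis was possible because the Fenofibrate group has 1 library. Against vehicle, 904 genes were higher and 742 lower. The counts were 884 and 777 with RLE size factors, 736 and 558 without a filter, 1145 and 1332 with DESeq2, 711 and 707 with limma and a run code term, and 241 and 76 with the 2 vehicles of the run code, and the cause was not tested. Of the calls against vehicle, limma kept 474 rises and 425 falls and the 2 vehicles kept 200 and 61. Leaving out 1 vehicle gave 672 to 906 higher and 512 to 741 lower, both lowest without vehicle 5. Against the run drugs (2315 higher and 2246 lower), the alternatives gave 2034 to 2540 higher and 2121 to 2520 lower. No gene called against vehicle turned its direction in an alternative. Of 136 named genes that passed against vehicle, 122 passed whichever vehicle was left out and 71 with the 2 vehicles of the run code.

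Named genes that changed sign had not passed, and the cause was not tested. With limma, the log2 fold change was 0.0913 for Acot1, 0.118 for Angptl4, -0.0109 for Asns and 0.0713 for Txnip. With the 2 vehicles of the run code, it was 0.0785 for Acot1, -0.0401 for Asns, -0.0964 for Fos and 0.0335 for Txnip. Leaving out 1 vehicle gave -0.00306 to 0.0539 for Asns, -0.0314 to 0.146 for Cpt1a, -0.0602 to 0.153 for Gfap, -0.202 to 0.0148 for Hmgcs1 and -0.1696 to 0.00347 for Txnip. Cpt1a and Gfap kept their sign but moved to 0.56 each with limma and to 0.51 and 0.54 with the 2 vehicles of the run code. Both settings take the fold change from these 2 vehicles, so their agreement is not independent.

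A single library carries no error of its own, and the dose is not given. In the simulation of 1 library against 9 vehicles, 55.2% of changes of 1 log2 unit were recovered, so the absence of a call does not show that a gene was unchanged. Genes with few reads have wide errors.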

Other observations

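Several gene lists held 1 or a few calls, read beside the 10.6% of all tested genes that passed against vehicle. Of 23 hypoxia-response genes, Ndrg1 rose and Ankrd37 fell. Ndrg1, a stress- and hypoxia-responsive gene, had 158 CPM with Fenofibrate, the highest of the screen, against 16.02, 28.1 and 47.8 CPM in vehicles (2.36 ± 0.42 log2 units, edgeR adjusted p = 0.00675). Ankrd37, a target of hypoxia-inducible factor, had 1.23 CPM with Fenofibrate, the lowest of the screen, against 2.76, 4.286 and 5.24 CPM in vehicles (fell by 1.77 ± 0.33 log2 units, edgeR adjusted p = 0.00751). The 2 genes thus moved in opposite directions. Of 15 glucocorticoid-response genes Errfi1, an inhibitor of the EGF receptor, rose (139 CPM with Fenofibrate, 28.6 to 49.8 CPM in vehicles, 1.89 ± 0.26 log2 units), and of 15 neuropeptides and granins the thyrotropin-releasing hormone gene Trh rose (6.1704 CPM with Fenofibrate, 0.416 to 1.96 CPM in vehicles).

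Of 26 proliferation genes 3 rose, all known from DNA replication. Mcm2, a subunit of the replicative helicase, had 32.2 CPM with Fenofibrate, against 14.3, 18.4 and 19.6 CPM in vehicles and 13.8, 16.6 and 21.1 CPM in the other drugs of the run code, without overlap (0.85 ± 0.15 log2 units, edgeR adjusted p = 0.00533). Mcm4 and Pcna rose by 0.41 log2 units each, and the Pcna call was lost when any vehicle other than vehicle 3 or 7 was left out. Of 19 glycolysis genes Aldoc rose (0.64 log2 units), of 16 lipid droplet genes Cidea rose (1.47, a call lost without vehicle 1, 4, 6, 7 or 9), and of 7 mural cell markers Cnn1 rose (1.85). Of 11 ERK feedback genes Spred1 fell by 0.43, and of 12 mitochondrial chaperones and proteases the import subunit Timm17a fell by 0.32.

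The edgeR test against vehicle called 0 of 17 genes of NF-kB inflammation, 0 of 5 AhR targets, 0 of 4 genes of metallothioneins and zinc export and 0 of the tested markers of microglia (12), endothelium (5), fibroblasts (8), oligodendrocytes (6) and their precursors (6). The 8 fibroblast markers summed to 335 CPM with Fenofibrate, 115 to 319 CPM in vehicles and 108 to 217 CPM in the other drugs.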
